A study of Mus musculus with 12 samples.

Results

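The mRNAs of 5 STAT transcription factors (Stat2, Stat3, Stat4, Stat5a and Stat6) and of 4 inhibitors of the same pathway (Socs1, Socs2, Socs3 and Cish) were followed in mouse bone marrow-derived macrophages (BMDM) over a course of lipopolysaccharide (LPS). These 9 genes were taken by symbol from the 43280 rows of the deposited expression table. LPS, a cell wall component of Gram-negative bacteria, drives macrophages towards the inflammatory M1 state. The study compared wild type (wt) cells with cells that lack Treml4, an innate immune receptor of the TREM family, and asked how Treml4 shapes the inflammatory programme of macrophages.

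All 12 libraries came from the C57BL6 background, from marrow cells differentiated in culture with M-CSF. The wt and the Treml4-/- genotype were each represented by unstimulated cells (M0), by cells given LPS at 100 ng/ml for 8 h (M1-8 h) and by cells given the same dose for 12 h (M1-12 h), with 2 biological replicates per condition. The labels do not say whether replicates were separate mice or separate cultures, so the p-values measure only the spread between these samples. A single set of M0 libraries served both LPS times, and the labels do not say for how long the vehicle was applied, so the 8 h and 12 h effects share their controls. The labels do not describe how the Treml4 allele was disrupted, and no rescued cells were among the samples.

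Cytokine receptors without enzymatic activity of their own carry JAK kinases. When a ligand binds, the JAKs phosphorylate STAT proteins, which pair, enter the nucleus and bind DNA. SOCS proteins and CIS, the product of Cish, are made from STAT target genes and shut the receptors down again, which makes them the feedback arm of the pathway. In macrophages LPS reaches the STATs mostly at second hand, through the interferon beta, IL-10 and IL-6 that the cells secrete, and phosphorylation of the proteins, not measured here, is the usual readout.

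Values are CPM, read counts on genes scaled to the library total, and 48008751 to 58500792 reads were counted per library, so 1 read was worth 0.0171 to 0.0208 CPM. Treml4 was read at 3.95 to 13.2 CPM in the 6 wt libraries and had no read in any of the 6 Treml4-/- libraries, which allows up to 0.0625 CPM at a floor of 3 reads. The 6 macrophage markers summed to 10002 to 12329 CPM at M0 and 5932 to 6942 CPM after LPS, but they did not move together. At 8 h mean Csf1r went down from 6047 to 1162 CPM, Cd68 from 1661 to 804 CPM and Emr1 from 1936 to 1669 CPM. Fcgr1 went up from 63.0 to 1193 CPM, Mertk from 33.3 to 275 CPM and Itgam from 940 to 1166 CPM. T and NK cell markers summed to at most 0.826 CPM, B cell markers to at most 0.309 CPM, dendritic cell markers to at most 0.856 CPM and fibroblast markers to at most 1.25 CPM. Neutrophil and precursor markers summed to 18.4 to 63.4 CPM, with the neutrophil-defining Ly6g at no more than 0.131 CPM. These markers moved apart under LPS. Mean Mpo fell from 20.1 CPM at M0 to 5.35 CPM at 8 h and 0.712 CPM at 12 h. Elane fell from 7.55 to 3.03 and 0.398 CPM, while S100a8 rose from 18.7 to 38.8 CPM at both times. S100a8 thus made up most of the sum after LPS. In bulk RNA, fewer cells expressing a gene and less RNA of it per cell cannot be told apart.

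Differences were tested as log2(CPM + 1) with limma over the 12086 genes that reached 1 CPM in at least 2 libraries. A gene was called where its change reached 1.4-fold with a p under 0.05 after Benjamini-Hochberg adjustment. Of the 9 genes, 8 passed the filter. Stat4, Socs1 and Cish were under 1 CPM in every M0 library and passed only through LPS libraries, Stat4 only through wt at M1-8 h. A gene this low at M0 that did not rise would not have been tested, so the filter favoured rises among such genes. The same holds for genes in the lists below that were under 1 CPM at M0. Adding 1 CPM compresses the change of weakly expressed genes, so ratios of mean CPM are given as well. The scale relative to the library total also matters under LPS. The 100 most abundant genes took 27.9% to 30.4% of all reads at M0, 32.4% to 33.5% at M1-8 h and 36.1% to 37.3% at M1-12 h, and the median of all 12086 genes moved by -0.72 (log2) at 8 h and by -0.76 at 12 h. With median of ratios scaling the median of all genes was -0.0213 at 8 h and -0.0063 at 12 h, and single genes were raised by a median of 0.75 and 0.80. With quantile normalization the median of all genes was -0.126 and -0.123, and single genes were raised by a median of 0.60 and 0.66.

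After 8 h of LPS, 6 of the 8 tested genes rose (Stat2, Stat3, Stat4, Socs1, Socs3 and Cish) and Stat6 fell, while Stat5a did not pass the test. Of those that rose, Stat4, Socs1 and Cish had passed the filter only through LPS libraries. Among all genes tested, 17.1% were called higher and 59.8% were called lower at 8 h. At 12 h, 5 genes were called higher (Stat2, Stat3, Socs1, Socs3 and Cish) and 2 were called lower (Stat5a and Stat6), against 16.3% and 60.3% of all genes tested. The median log2 fold change of the 8 genes was 2.87 at 8 h and 2.73 at 12 h. With median of ratios scaling 31.9% of the genes tested were higher and 31.0% lower at 8 h, and 7 of the 8 genes were higher and none was lower. At 12 h that scaling called 33.5% of the genes tested higher and 32.4% lower, with 6 of the 8 genes higher and none lower.

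**Figure D1:**
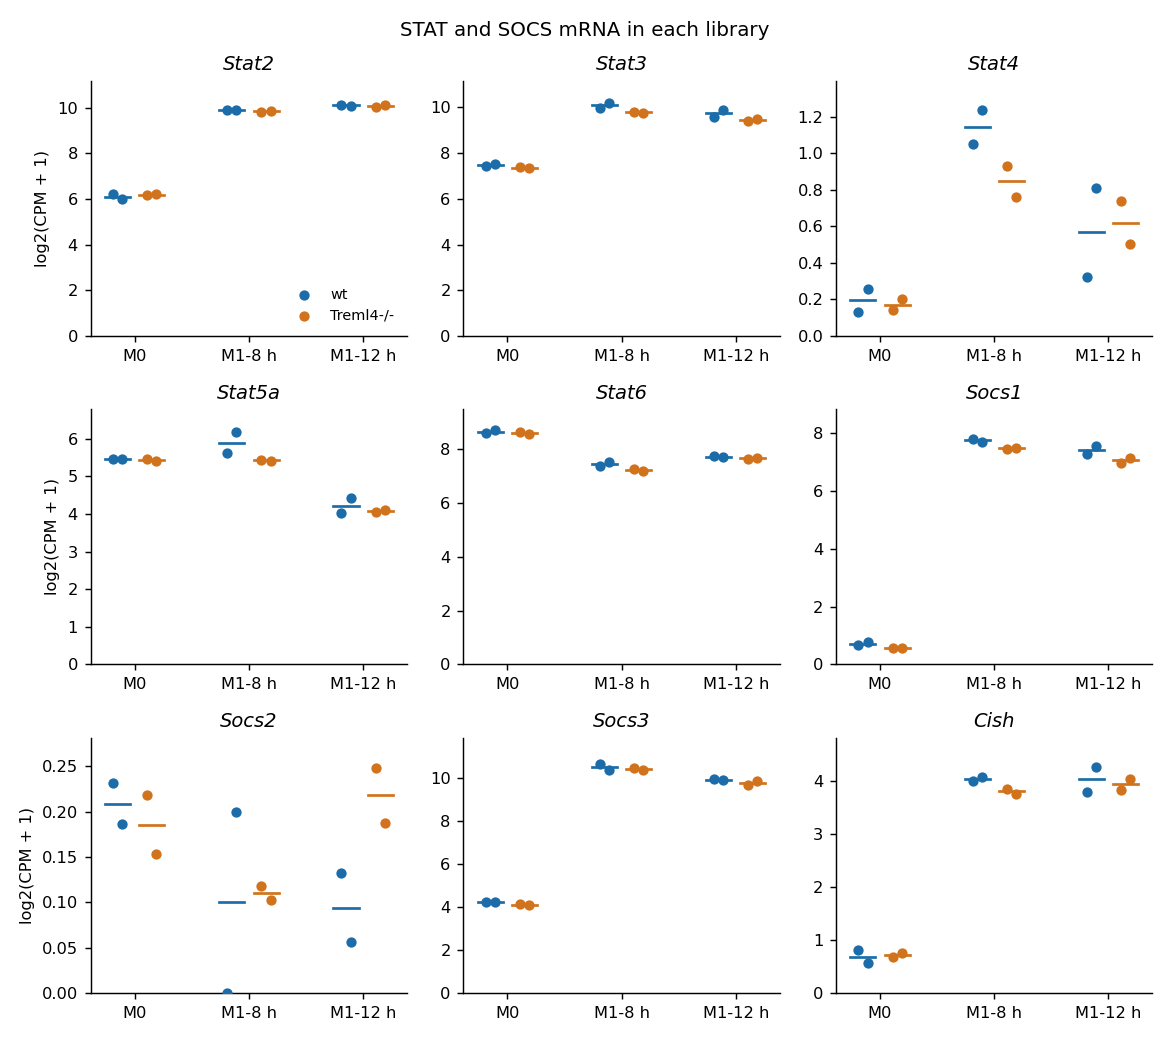
Each panel plots log2(CPM + 1) of 1 gene in the 12 libraries by time, with wt in blue, Treml4-/- in orange, 1 point per library and a bar at the mean of the 2 replicates; the vertical axes differ between panels and start at 0. Socs1, Socs3, Cish, Stat2 and Stat3 were far above M0 in all 8 LPS libraries, Stat6 was below M0 in all 8, and Stat5a dropped only at M1-12 h.

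Stat2 encodes the STAT that pairs with other STAT proteins and IRF9 to carry the type I interferon signal. At M0 it stood at 72.5 and 63.6 CPM in the wt libraries and at 71.0 and 73.0 CPM in the Treml4-/- libraries. At M1-8 h it reached 955 and 947 CPM in wt and 912 and 931 CPM in Treml4-/- cells, and at M1-12 h 1124 and 1072 CPM in wt and 1030.2 and 1095 CPM in Treml4-/- cells. The M0 libraries and the LPS libraries were far apart, and the replicates lay close together. The mean CPM was 13.4 times the M0 level at 8 h and 15.4 times at 12 h, with log2 fold changes of 3.72 (SE 0.06, limma adjusted p = 3.24e-13) and 3.93 (SE 0.06, adjusted p = 2.41e-13). From 8 h to 12 h the change was 0.21, which stayed under 1.4-fold.

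Stat3, the factor behind the anti-inflammatory response to IL-10 and the response to IL-6, stood at 171 and 185 CPM in wt and 168 and 161 CPM in Treml4-/- cells at M0. It rose to 1013 and 1162 CPM in wt and 895 and 859 CPM in Treml4-/- cells at M1-8 h, and stood at 775 and 939 CPM in wt and 675 and 721 CPM in Treml4-/- cells at M1-12 h. At every time both wt libraries were above both Treml4-/- libraries. The level was 5.74 times M0 at 8 h and 4.54 times M0 at 12 h, with log2 fold changes of 2.51 (SE 0.07, limma adjusted p = 4.81e-11) and 2.17 (SE 0.07, adjusted p = 1.56e-10). The 12 h value relative to 8 h was -0.34, below the fold threshold. The exons of Stat3 (chr11:100885098-100939540, minus strand, GRCm38) share 72 bases with those of Stat5a on the other strand, and whether reads were counted by strand was not given in the sources used here.

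Stat4, the STAT of IL-12 signalling known best from T and NK cells, was close to the limit of detection. At M0 it was read at 0.0964 and 0.197 CPM in wt and 0.102 and 0.150 CPM in Treml4-/- cells. At M1-8 h it reached 1.07 and 1.36 CPM in wt and 0.906 and 0.695 CPM in Treml4-/- cells, and at M1-12 h it stood at 0.249 and 0.754 CPM in wt and 0.667 and 0.417 CPM in Treml4-/- cells. All M1-8 h libraries were above all M0 libraries. The mean CPM was 7.39 times M0 at 8 h and 3.83 times M0 at 12 h, while the log2 fold change with 1 CPM added was 0.81 at 8 h (SE 0.11, limma adjusted p = 2.46e-05) and 0.41 at 12 h (adjusted p = 0.00434), the latter under 1.4-fold. With 0.1 CPM added, the 12 h change was 1.33 and was called, and leaving out the first wt library at 12 h it was 0.53 and was called. Of the 6 T and NK cell markers, 5 had no more than 3 reads in any library. The sum of all 6 was 0.393 to 0.826 CPM at M0, nearly all of it Klrb1c, and at most 0.130 CPM after LPS. The part of such cells in the Stat4 reads was not tested. Exons of Stat4 share 1033 bases with the predicted gene Gm28177 on the same strand.

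Stat5a, which serves GM-CSF and other growth factor receptors, was not called at 8 h and had fallen by 12 h. The M0 libraries held 43.5 and 42.8 CPM in wt and 42.8 and 41.4 CPM in Treml4-/- cells. At M1-8 h the wt libraries held 47.9 and 71.1 CPM and the Treml4-/- libraries 42.3 and 41.9 CPM, and at M1-12 h the values were 15.3 and 20.4 CPM in wt and 15.5 and 16.2 CPM in Treml4-/- cells. The second wt library at 8 h was higher than every other library, and all M1-12 h libraries were lower than all others. At 8 h the change from M0 was 0.21 (SE 0.12, limma adjusted p = 0.107). By 12 h the level had fallen 2.53-fold from M0 (log2 fold change -1.30, SE 0.12, adjusted p = 6.15e-07) and 3.01-fold from 8 h (log2 fold change -1.51, SE 0.12, adjusted p = 1.27e-06).

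Relative to the median of all genes, Stat5a was 0.94 (log2) higher at 8 h and 0.54 lower at 12 h, and with median of ratios scaling it was called higher at 8 h, at 0.99, and was just under the fold threshold at 12 h, at -0.48. Quantile normalization (0.71 and -0.63) and voom on whole reads (0.99 and -0.53) called it higher at 8 h and lower at 12 h. The fall from 8 h to 12 h was called under all 4 of these settings, at -1.34 to -1.52. Stat5b, the neighbouring and closely related gene on chromosome 11, was named after its values were seen. It stood at 81.3 ± 1.32 CPM (SD, n = 4) at M0, 73.6 ± 10.7 CPM at M1-8 h and 39.5 ± 2.54 CPM at M1-12 h. Its log2 fold change was -0.15 at 8 h (limma adjusted p = 0.0688), -1.03 at 12 h (adjusted p = 6.76e-08) and -0.87 between 8 h and 12 h (adjusted p = 2.14e-06). Reads that match Stat5a and Stat5b alike could be split between the 2 genes, which makes both levels uncertain.

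Stat6, the factor that carries IL-4 and IL-13 signals towards alternative activation, had the highest CPM of the 9 genes at M0, at 384 and 411 CPM in wt and 394 and 376 CPM in Treml4-/- cells. It stood at 165 and 183 CPM in wt and 151 and 146 CPM in Treml4-/- cells at M1-8 h, and at 211 and 204 CPM in wt and 195 and 204 CPM in Treml4-/- cells at M1-12 h. Every LPS library was below every M0 library. The level fell 2.43-fold at 8 h (log2 fold change -1.28, SE 0.06, limma adjusted p = 1.13e-09) and 1.92-fold at 12 h (-0.94, SE 0.06, adjusted p = 1.48e-08). The median gene was lower as well, and relative to it Stat6 was 0.55 lower at 8 h and 0.18 lower at 12 h. With median of ratios scaling the changes were -0.48 and -0.09, neither of them called, and the latter had an adjusted p of 0.267. With quantile normalization they were -1.38 and -0.96, both called, and with voom on whole reads -0.52, called, and -0.13, not called.

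**Figure D2:**
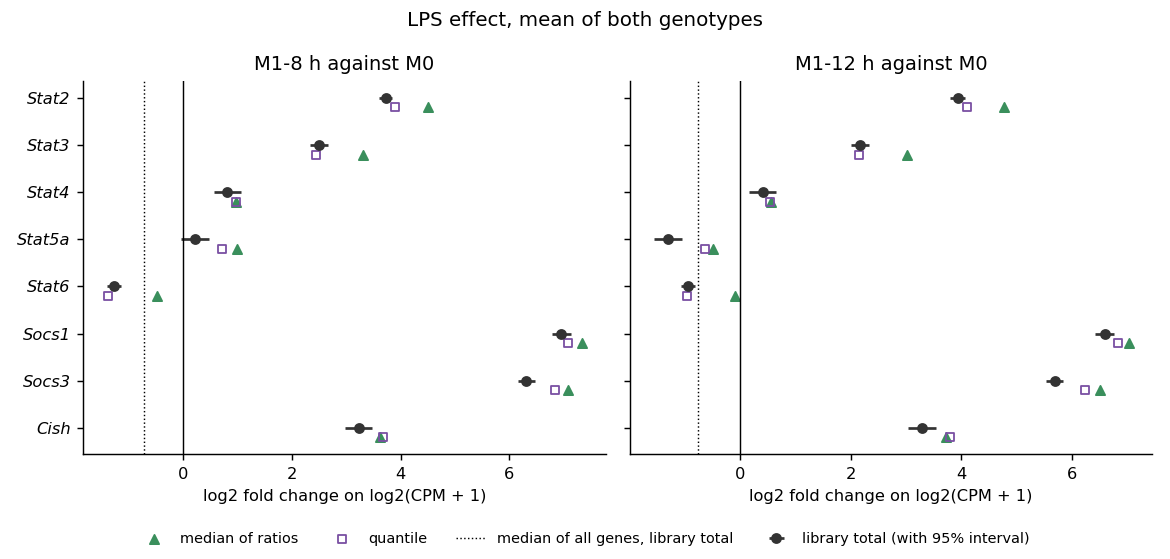
Log2 fold changes against M0 on the log2(CPM + 1) scale, averaged over both genotypes, are plotted for the 8 tested genes at 8 h (left) and 12 h (right), as black points with 95% intervals for the library total scaling, green triangles for median of ratios and open squares for quantile normalization; the dotted line is the median of all genes at -0.72 and -0.76. Socs1 and Socs3 lie farthest to the right, Stat6 and at 12 h Stat5a lie left of 0, and the median of ratios values of both lie farther to the right.

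Socs1 and Socs3 had the largest changes of the 8 genes at both times. Socs1, which blocks JAK kinases and is best known as the brake on interferon signalling, was nearly silent at M0, with 0.579 and 0.708 CPM in wt and 0.489 and 0.468 CPM in Treml4-/- cells. It reached 219.9 and 206 CPM in wt and 172 and 177 CPM in Treml4-/- cells at M1-8 h, and stood at 154 and 185 CPM in wt and 123 and 139 CPM in Treml4-/- cells at M1-12 h. The wt libraries were above the Treml4-/- libraries at all 3 times. The mean level was 346 times M0 at 8 h and 268 times M0 at 12 h, with log2 fold changes of 6.96 (SE 0.08, limma adjusted p = 2.82e-14) and 6.59 (SE 0.08, adjusted p = 3.59e-14), and it was -0.37 from 8 h to 12 h, under the fold threshold.

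Socs3, which binds the gp130 chain of the IL-6 receptor and limits its signal through Stat3, stood at 17.7 CPM in both wt libraries and at 16.4 and 15.9 CPM in Treml4-/- cells at M0. It reached 1625 and 1348 CPM in wt and 1409 and 1335 CPM in Treml4-/- cells at M1-8 h, the highest CPM of the 9 genes at that time. At M1-12 h it stood at 987 and 956 CPM in wt and 825 and 927 CPM in Treml4-/- cells, below all M1-8 h libraries. The level was 84.5 times M0 at 8 h and 54.6 times M0 at 12 h, with log2 fold changes of 6.32 (SE 0.07, limma adjusted p = 2.62e-14) and 5.69 (SE 0.07, adjusted p = 4.77e-14). From 8 h to 12 h it fell 1.55-fold (log2 fold change -0.63, SE 0.07, adjusted p = 1.65e-05).

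Cish, a target and inhibitor of STAT5 signalling, was read at 0.752 and 0.472 CPM in wt and 0.611 and 0.692 CPM in Treml4-/- cells at M0. It rose to 15.1 and 16.0 CPM in wt and 13.5 and 12.6 CPM in Treml4-/- cells at M1-8 h and stood at 12.9 and 18.4 CPM in wt and 13.3 and 15.5 CPM in Treml4-/- cells at M1-12 h. The LPS libraries of both times overlapped each other and lay apart from M0. The level was 22.7 times M0 at 8 h and 23.8 times M0 at 12 h (log2 fold changes 3.23 and 3.29, SE 0.11 each, limma adjusted p = 1.86e-10 and 1.64e-10). Exons of Cish share 261 and 479 bases with the predicted genes Gm17040 and Gm17041 on the other strand.

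Socs2, an inhibitor of growth hormone signalling, was not tested, since no library reached 1 CPM. It had 6 to 9 reads per library at M0, 0 to 8 reads at M1-8 h and 2 to 9 reads at M1-12 h, that is 0 to 0.187 CPM over the 12 libraries. The library without a read, from wt cells at M1-8 h, allows up to 3 reads. At M1-12 h the wt libraries held 5 and 2 reads and the Treml4-/- libraries 9 and 8, which did not overlap, while the genotypes overlapped at M0 and M1-8 h. Counts this low were given no test.

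Between 8 h and 12 h of LPS, none of the 8 tested genes was called higher and 2 were called lower, Stat5a and Socs3. Over all genes tested, 13.5% were called higher and 18.7% lower. Without the fold threshold, 7 of the 8 had an adjusted p under 0.05 in limma: Stat2 and Stat6 higher, and Stat3, Stat4, Stat5a, Socs1 and Socs3 lower. By that criterion 26.1% of all genes tested were higher and 34.2% lower. Cish was the exception, at 0.06 (adjusted p = 0.693).

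Levels of different genes were set side by side as CPM per kilobase of exon. At M0 the order was Stat6 at 88.9 ± 3.44 (SD, n = 4), Stat3 at 18.0 ± 1.05, Stat2 at 11.8 ± 0.735, Stat5a at 5.98 ± 0.122, Socs3 at 5.85 ± 0.322, Socs1 at 0.193 ± 0.0376, Cish at 0.0984 ± 0.0189, Stat4 at 0.0352 ± 0.0121 and Socs2 at 0.0154 ± 0.00288. Among neighbours in that order, only the libraries of Stat5a and Socs3 overlapped. At M1-8 h Socs3 led at 494 ± 46.5, followed by Stat2 at 158 ± 3.26, Stat3 at 103 ± 14.4, Socs1 at 66.7 ± 7.88, Stat6 at 36.6 ± 3.74, Stat5a at 7.12 ± 1.93, Cish at 2.23 ± 0.239, Stat4 at 0.260 ± 0.0719 and Socs2 at 0.00806 ± 0.00639, and no neighbours overlapped.

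The order of mean levels was the same at M1-12 h, where the libraries of Socs1 (51.7 ± 9.15) and Stat6 (46.2 ± 1.53) overlapped, as did those of Stat5a (2.36 ± 0.336) and Cish (2.34 ± 0.391). Stat6 thus stood at the head of the 9 genes before LPS and in place 5 of 9 after it, and Socs1 moved from place 6 to place 4. These lengths count all annotated exons of GENCODE M21, which may be longer than the transcripts present.

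**Figure D3:**
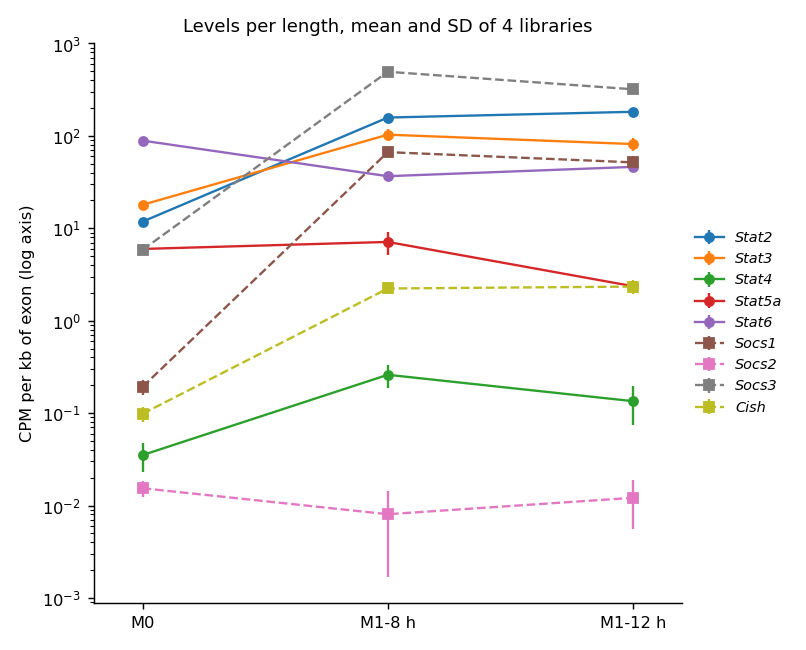
Mean CPM per kilobase of exon (log axis) is plotted for the 9 genes by time over 4 libraries each, with SD bars, solid lines for STAT genes and dashed lines for the inhibitors. Between M0 and M1-8 h Socs3 passes Stat5a, Stat2, Stat3 and Stat6, and Socs1 passes Stat5a and Stat6 but stays below Stat2 and Stat3, while Stat4 and Socs2 stay at the bottom.

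The promoters of the 9 genes were searched for 3 patterns that STAT proteins or the STAT2-containing interferon complex are known to bind: TTCNNNGAA, TTC and GAA spaced by 4 bases, and GAAA and GAAA spaced by 2 bases, on both strands. RefSeq held 10 promoters on GRCm38.p6 for 8 of the 9 genes, from 250 bases before to 50 bases after the start. Of these 8 genes, 5 carried a match. Among all 32851 promoters of the same length, 8.30% held TTCNNNGAA, 6.95% held the wider TTC and GAA pair and 3.44% held the GAAA pair. These shares are per promoter and per pattern, and the share with any of the 3 was not counted, so the 5 genes have no matching share beside them. Stretches are shown for every gene that held a match, with the matches in capitals. All 5 rose at 8 h, as did Stat3, which held no match. A link between the matches and the rises was not tested.
Socs1: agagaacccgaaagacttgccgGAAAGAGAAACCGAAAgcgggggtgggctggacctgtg
Socs3: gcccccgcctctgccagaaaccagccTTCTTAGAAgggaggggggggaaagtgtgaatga
Cish: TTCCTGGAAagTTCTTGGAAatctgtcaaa
Stat2: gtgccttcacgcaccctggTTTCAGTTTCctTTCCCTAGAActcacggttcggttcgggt
Stat4: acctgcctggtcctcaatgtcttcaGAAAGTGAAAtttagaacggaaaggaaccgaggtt

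The Socs1 stretch (chr16:10785582-10785641, minus strand) holds 2 GAAA pairs that overlap, beginning 83 and 77 bases before the start. The Socs3 stretch (chr11:117969487-117969546, minus strand) holds 1 TTCNNNGAA, 154 bases before the start. Cish (chr9:107296659-107296688, plus strand) holds 2 copies of TTCNNNGAA that begin at bases 1 and 12 of the RefSeq transcript. Stat2 (chr10:128270257-128270316, plus strand) holds a GAAA pair read from the other strand and a TTC and GAA pair 4 bases apart. Stat4 (chr1:52008118-52008177, plus strand) holds a GAAA pair 97 bases before the start. Stat3, Stat5a and Stat6 held none of the 3 letter patterns in this window. A match is a description of letters, and binding was not measured here.

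Genotype was compared at each time as wt relative to Treml4-/-. None of the 8 genes was called at M0, M1-8 h or M1-12 h, nor for the mean of the 3 times. Among all genes tested, limma called 0.0993% at M0, 0.091% at M1-8 h, 0.132% at M1-12 h and 0.414% for the mean of the times. At an unadjusted p under 0.05, none of the 8 genes passed at M0, 4 passed at 8 h (Stat3, Stat5a, Stat6 and Socs1), 2 passed at 12 h (Stat3 and Socs1) and 5 passed for the mean of the times, against 3.35%, 21.0%, 7.55% and 20.1% of all genes tested. By voom on whole reads, too, none of the 8 genes was called.

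Socs1 was 0.15 (log2) higher in wt at M0, 0.28 higher at 8 h and 0.37 higher at 12 h, with adjusted p-values of 1, 0.191 and 0.359 in limma. Its mean difference over the times was 0.27 (SE 0.06, adjusted p = 0.0819), and the 95% interval of the 12 h difference ran from 1.09-fold to 1.52-fold. Stat3 differed by 0.11, 0.31 and 0.29, with adjusted p-values of 1, 0.176 and 0.52, and by 0.24 for the mean of the times (adjusted p = 0.104). Both genes had their wt libraries above their Treml4-/- libraries at each of the 3 times. The mean of the times passed the adjusted threshold in some fits that left out 1 library: the adjusted p ranged from 0.0276 to 0.308 for Socs1 and from 0.038 to 0.347 for Stat3, but the difference itself stayed under 1.4-fold.

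Stat5a showed the largest single difference, 0.46 (SE 0.17) at M1-8 h, with an adjusted p of 0.18 and a 95% interval from 1.07-fold to 1.77-fold. It rested on the second wt library: without it the difference was 0.18, and without the first wt library it was 0.74. The difference of Stat5b at 8 h was 0.30 (adjusted p = 0.178). Stat6 was 0.23 higher in wt at 8 h (adjusted p = 0.179) and 0.06 higher at 12 h. The other differences at 8 h were 0.05 for Stat2, 0.30 for Stat4, 0.11 for Socs3 and 0.24 for Cish, and their 95% intervals all included 0.

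All 8 differences were positive at M1-8 h, 7 at M1-12 h and 6 at M0, whereas 38.1%, 35.5% and 39.6% of all genes tested were positive. The wt libraries lay above the Treml4-/- libraries for 4 genes at M0, 7 at 8 h and 4 at 12 h, against 10.8%, 18% and 12.3% of all genes, and the reverse held for none of the 8 tested genes at any time, against 18%, 33.9% and 30.8%. These genes share libraries and an LPS course, so they do not count as 8 separate observations. Stat4 reached 1 CPM only in the wt libraries at M1-8 h and passed the filter through them. Its positive difference and its place above Treml4-/- at that time were therefore set by the filter. Median of ratios scaling took the median genotype difference of all genes at 8 h from -0.07 to 0.03, and under quantile normalization the difference of Stat2 turned to -0.02. The neutrophil and precursor markers summed to 18.4 to 47.7 CPM in wt and 57.8 to 62.0 CPM in Treml4-/- cells at M0, to 35.5 to 42.2 and 47.8 to 63.4 CPM at M1-8 h, and to 31.3 to 41.5 and 37.5 to 49.5 CPM at M1-12 h, where the genotypes overlapped. After LPS most of that sum was S100a8. None of the 3 of these markers that were tested was called between genotypes at any time, and their part in the differences above was not tested.

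**Figure D4:**
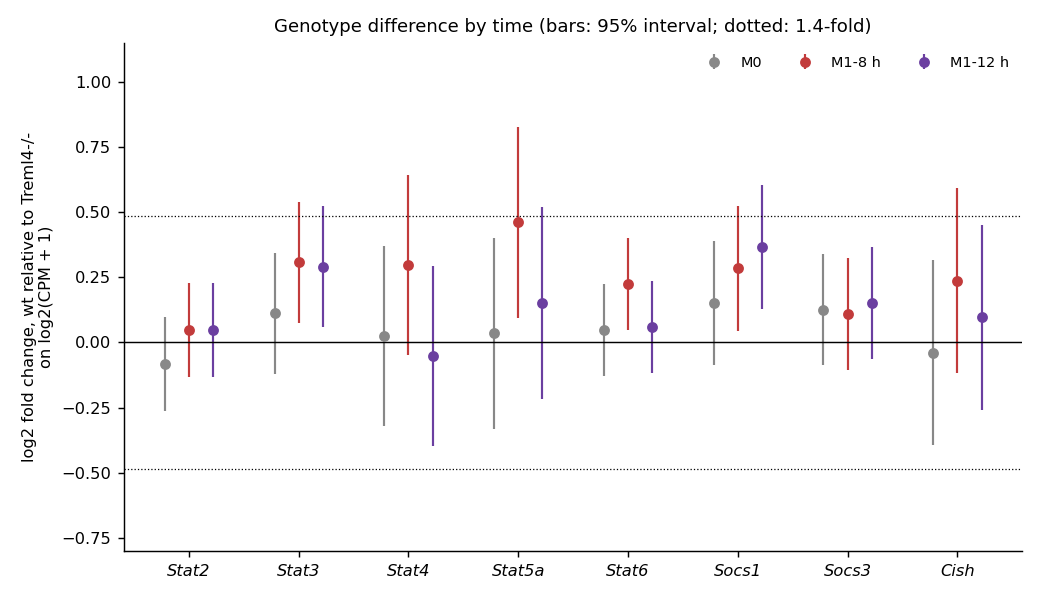
The log2 difference of wt relative to Treml4-/- on the log2(CPM + 1) scale is plotted for the 8 tested genes at M0 (grey), M1-8 h (red) and M1-12 h (purple) with 95% intervals, and dotted lines mark 1.4-fold. All points lie between the dotted lines, and Stat5a at M1-8 h, at 0.46, comes nearest.

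In wt cells alone and in Treml4-/- cells alone, 6 of the 8 genes were called higher and Stat6 lower at 8 h. Among all genes tested, 16.3% were called higher and 60.6% lower in wt cells, and 17.7% and 58.1% in Treml4-/- cells. In wt cells Socs1 changed by 7.03 at 8 h and in Treml4-/- cells by 6.89, Socs3 by 6.31 and 6.32, Stat2 by 3.79 and 3.66, Cish by 3.37 and 3.09 and Stat6 by -1.19 and -1.37. The difference of the LPS effect between genotypes was tested as an interaction, and none of the 8 genes was called, against 0.00827% of all genes tested at 8 h and 0.00827% at 12 h, and none had an unadjusted p under 0.05. The 95% intervals of the interaction at 8 h ran from 0.92-fold to 1.31-fold for Stat2, from 0.87-fold to 1.39-fold for Socs1, from 0.80-fold to 1.22-fold for Socs3 and from 0.94-fold to 1.93-fold for Stat5a, so differences within those bounds were not resolved.

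Around these genes, the rest of the pathway was described from lists of its parts. Over all genes tested, 17.1% were called higher and 59.8% lower at 8 h, and 16.3% and 60.3% at 12 h. With median of ratios scaling these shares were 31.9% and 31.0% at 8 h, and 33.5% and 32.4% at 12 h. Of the JAK kinases, Jak2 rose from 24.6 ± 2.14 CPM at M0 to 559 ± 132 CPM at 8 h (log2 fold change 4.42, SE 0.12, limma adjusted p = 2.39e-11) and stood at 308 ± 33.5 CPM at 12 h (3.59). Jak3, which pairs with the common gamma chain, rose by 0.97 at 8 h and by 1.44 at 12 h. Tyk2, a kinase of the interferon alpha and beta receptor, was at 0.43 at 8 h, under 1.4-fold, and rose by 0.88 at 12 h. Jak1 was at 0.26 and 0.28, under 1.4-fold at both times. Against M0, no JAK kinase was called lower under any scaling, and all 4 were called higher at both times with median of ratios scaling. From 8 h to 12 h Jak2 was called lower (log2 fold change -0.83, limma adjusted p = 0.000129).

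Among the 6 remaining STAT and SOCS genes, 2 were called higher and 3 lower at 8 h, and 1 higher and 3 lower at 12 h. With median of ratios scaling 3 were higher and 1 lower at 8 h, and 2 higher and 1 lower at 12 h. Socs5, thought to act on EGF and IL-4 receptors, fell from 36.6 ± 3.20 CPM to 8.20 ± 1.41 CPM at 8 h (log2 fold change -2.04, SE 0.11, adjusted p = 5.12e-09), and it was called lower under every scaling. Of 9 other negative regulators, 3 were higher and 2 lower at 8 h, or 6 higher and 1 lower with median of ratios scaling. Usp18, which detaches the interferon receptor from its kinase, went from 7.02 to 842 CPM (6.72), and Pias3, an inhibitor of STAT3, went from 27.4 to 5.14 CPM (-2.21).

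Of 20 receptor chains that signal through STATs, 18 were tested, with 8 higher and 6 lower at 8 h, or 12 higher and 4 lower of 17 tested with median of ratios scaling. Il12rb1, a chain of the IL-12 receptor, went from 0.376 to 66.9 CPM (5.62) and Il4ra, the IL-4 receptor that feeds Stat6, from 129.8 to 2045 CPM (3.96). Ifngr1, chosen after its values were seen, went from 148 to 14.4 CPM (-3.26). All 9 tested ligands of 12 listed rose at both times. Il27, the p28 subunit of IL-27, reached 872 CPM at 8 h and 188 CPM at 12 h from 0.640 CPM at M0, and Il12b, the p40 subunit of IL-12, reached 307 and 58.0 CPM from 0.0538 CPM. Both, and other ligands among the 9, were under 1 CPM at M0 and were tested only through LPS libraries. The filter therefore favoured their rise.

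Genes that STATs are known to switch on mostly rose. Of 12 interferon-stimulated genes, 11 were higher at 8 h and 12 at 12 h, among them Mx1, from 2.36 to 1625 CPM at 8 h (8.88), and Rsad2, from 13.6 to 6060.2 CPM (8.68). All 5 STAT3 targets rose at both times, among them the IL-1 antagonist Il1rn, from 33.4 to 11352 CPM (8.37), and the repressor Nfil3, from 18.2 to 134 CPM (2.80). All 4 STAT5 targets rose at both times, including Ccnd2, a cyclin, from 0.225 to 114 CPM (6.52), and the kinase Pim1, from 51.2 to 344 CPM (2.72). Ccnd2 and another of these 4 were under 1 CPM at M0 and were tested only through LPS libraries, so the filter favoured their rise. The genes of these lists also have inducers other than STATs.

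Of 8 genes listed as STAT6 targets only 4 were tested, with 1 higher and 1 lower at 8 h and 1 higher and 3 lower at 12 h. Pparg, a nuclear receptor of lipid handling, fell from 36.9 to 0.677 CPM at 8 h (-4.50), and Arg1, which degrades arginine, rose from 0.175 to 5.70 CPM at 8 h (2.39) and 77.5 CPM at 12 h (5.84). The median log2 fold change at 8 h was 6.63 for the interferon-stimulated genes, 3.63 for the ligands, 2.50 for the STAT5 targets, 1.51 for the STAT3 targets, 0.70 for the JAK kinases, 0.25 for the receptor chains, -0.04 for the other negative regulators, -0.33 for the STAT6 targets and -0.33 for the remaining STAT and SOCS genes, beside -0.72 for all genes. No gene of these lists was called between genotypes at any of the 3 times.

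**Figure D5:**
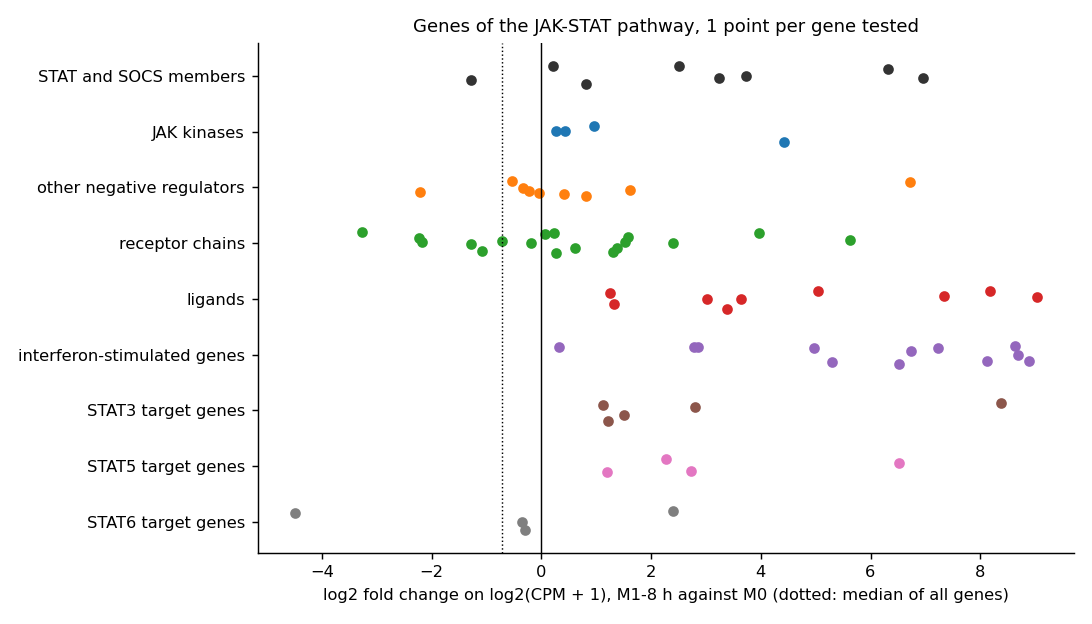
Each point is the log2 fold change of 1 tested gene at M1-8 h against M0, averaged over both genotypes, in rows for the 8 STAT and SOCS genes and for 8 lists of the pathway; points are spread vertically at random, and the dotted line is the median of all genes at -0.72. The ligands, interferon-stimulated genes and STAT3 and STAT5 targets all lie right of 0, while receptor chains and other negative regulators lie on both sides. Genes that did not pass the filter are not shown.

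The genes whose course over the 12 libraries was most like that of each member were found by Pearson's correlation of log2(CPM + 1), a description in which all points share the LPS course. Stat2 was followed most closely by Isg15 (r = 1.00), a ubiquitin-like interferon-stimulated protein that is also in the list above, and Slc28a2 (r = 0.999). The nearest to Stat3 were Ch25h (r = 0.999) and Cnn3 (r = 0.997), to Stat6 Gpr180 (r = 0.997) and Sympk (r = 0.997), and to Stat5a Rabep2 (r = 0.989) and Cdc42se1 (r = 0.983). For Stat4 they were D16Ertd472e (r = 0.970) and Foxp4 (r = 0.966).

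Socs1 was nearest to Upp1 (r = 1.00) and Slco3a1 (r = 0.999), Socs3 to Serpina3f (r = 0.999) and Rab20 (r = 0.999), and Cish to Nod1 (r = 0.998) and Clic5 (r = 0.998). Genes at r of at least 0.99 numbered 250 for Stat2, 250 for Socs1, 226 for Socs3, 213 for Cish, 94 for Stat3 and 70 for Stat6, and there was none for Stat4 or Stat5a. Among the members themselves, Socs1 and Socs3 were most alike (r = 0.998), Stat6 ran opposite to Socs3 (r = -0.973), and the strongest correlation of Stat5a with another member was -0.407, with Stat2.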

How the data were processed

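Per the labels and the study's methods, poly(A) RNA libraries were prepared with a stranded TruSeq kit and sequenced as pairs on a HiSeq2500. The authors aligned the reads with STAR (to mm10, per the submitters' processing notes), ran the CCBR workflow with Subread for gene counts, and deposited log2 CPM with a prior count of 0.25 reads. The annotation and the strand setting of the counting were not given in the sources used here. Taking the prior away gave whole reads for 100% of the deposited values in each library.

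CPM recovered from these reads entered limma 3.58.1 (R 4.3.3) as log2(CPM + 1). The fit had 1 mean per condition over all 12 libraries and a trend in the prior variance. It was also run on simulated reads in which few genes changed and the median gene was not shifted. That run therefore does not test how the fit behaves under the shift seen with LPS. The filter was 1 CPM in 2 libraries and the adjustment Benjamini-Hochberg over 12086 genes. The 1.4-fold and 5% false discovery rate thresholds are those of the study. LPS contrasts are means over both genotypes. Replicates differed beyond sampling noise (chi-square per degree of freedom of 11.3 to 51.7) and were kept apart.

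The members, gene lists and tests were chosen with earlier results of these data known. Named besides the members were Treml4, the JAK kinases, the 2 largest called changes at 8 h in each list and the 2 best correlated genes, leaving out predicted genes. Of the genes this rule names, 1 is not reported here. Exon lengths and positions came from GENCODE M21 (GRCm38), which need not be the annotation of the files, and promoters from RefSeq (GRCm38.p6). Alternatives were other pseudocounts, the deposited log2 values, other filters, median of ratios and quantile scaling, no trend and voom on whole reads with trimmed mean scaling. Others were a replicate block, over all libraries or within each genotype, fits of the compared libraries only, no minimum fold change and leaving out each library. Python 3.11.15 with pandas 2.3.3, numpy 2.4.6 and matplotlib 3.10.9 served for tables and plots.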

Additional observations from a re-analysis of the deposited data

How the results depend on the processing

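The counts of called genes between genotypes and for the interaction were 0 under every alternative run. The counts against M0 depended on the scaling: with median of ratios 0 genes instead of 1 were lower at 8 h and 0 instead of 2 at 12 h, and with voom 1 was lower at 12 h. Without a minimum fold change 7 genes instead of 2 differed between 8 h and 12 h, 2 of them higher and 5 lower, beside 26.1% and 34.2% of all genes tested. Stat4 at 12 h was called with a pseudocount of 0.1 (1.33), on the deposited scale (1.84), with median of ratios (0.55), quantile normalization (0.55) and voom (2.61), and its low level leaves the size of its fold uncertain.

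Directions turned only for differences that were not called. Stat2 between genotypes at 8 h was -0.0225 with quantile normalization. Leaving out 1 library at a time, the change of Cish from 8 h to 12 h ranged from -0.0634 to 0.1758, the low end without the second wt library at 12 h. The genotype difference at M0 then ranged from -0.1759 to 0.0087 for Stat2, from -0.0378 to 0.0885 for Stat4, from -0.0020 to 0.0957 for Stat6 and from -0.1656 to 0.0857 for Cish, where leaving out the second wt library turned the direction of each. At 8 h the genotype difference of Socs3 ranged from -0.0247 to 0.2448, negative without the first wt library. At 12 h the difference ranged from -0.0431 to 0.3459 for Stat5a and from -0.1423 to 0.3362 for Cish. The low end of both came without the second wt library. For Stat4 it was -0.0536 with all libraries and ranged from -0.2985 to 0.1912, positive without the first wt library. Leaving out the first Treml4-/- library at 12 h also turned Stat4, to 0.0636, and Cish, to -0.0043. The cause was not tested.

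The labels repeat the replicate number over the times of a genotype but do not say that it marks a shared mouse or culture. Deviations of same-numbered libraries correlated at -0.264 at M0, 0.297 at 8 h and 0.0563 at 12 h between genotypes. Between times they correlated at 0.125, 0.0625 and 0.406 in wt cells and at 0.462, -0.199 and -0.272 in Treml4-/- cells. These values cannot decide whether cultures were shared, and the main fit did not take the numbers as pairs. With the replicate block 7 genes were called at 8 h, 7 at 12 h, 2 between the times and 0 between genotypes, as without it. With a block for the replicate number within each genotype, 7 were called at 8 h, 7 at 12 h and 2 between the times. The interaction then called 0 at either time.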
